A study of Mus musculus with 48 samples.

Results

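Genes of oxidative phosphorylation were followed in mouse kidney after repeated vancomycin. They were taken as every named gene whose symbol begins with Nduf, Uqcr, Sdh or Atp5, or with Cox and a digit from 4 to 8. Of the 7859 genes that carried a name, 47 had such a symbol. The array's annotation holds 94 genes with such symbols, and those outside the named positions were not analysed here. The 47 comprised 19 subunits of complex I, 2 of complex II, 1 of complex III, 8 of complex V, 6 broadly expressed subunits of complex IV, 4 tissue isoforms of complex IV and 2 related proteins. The symbols also took in 5 assembly factors (Ndufaf1, Ndufaf3, Ndufaf4, Sdhaf1 and Sdhaf4), which help to build a complex without being part of it.

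The respiratory chain sits in the inner mitochondrial membrane. Complexes I and II take electrons from NADH and succinate and pass them to ubiquinone, complex III passes them to cytochrome c, and complex IV gives them to oxygen. Complexes I, III and IV pump protons, and complex V, the ATP synthase, lets them flow back to make ATP. In the kidney the proximal and distal tubules are rich in mitochondria, because reabsorption of salt and solutes needs much ATP. Most subunits are encoded in the nucleus, as are all those described here, and a few catalytic core subunits are encoded in mitochondrial DNA and do not carry these symbols.

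Kidneys came from 48 female mice of the inbred BALB/c strain, with no genetic change named and no age stated in the labels. Vancomycin, a glycopeptide antibiotic known for kidney toxicity, was injected once a day for 7 days at 50, 200 or 400 mg/kg, either into a vein (iv) or into the peritoneal cavity (ip). Control mice received saline by the same routes, which gave 8 groups of 6 mice, and all kidneys were taken on day 8. RNA from a piece of kidney of each mouse was read on one single-colour Affymetrix array, and the values are GCRMA intensities, used here as log2 intensity.

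Gene names rest on a placing by position. The values in the table used here do not follow the identifiers beside them, so a name was given only within 3 stretches whose values follow the identifier order at a constant distance, and every named value holds only as far as this placing does. The stretches were taken from an earlier analysis of these same values, which used the likeness of probe sets of the same gene, so the values in this paragraph describe the placing and are no independent check of it. The 61 probe sets placed on these genes had a median level of 12.11 (log2 intensity), against 5.71 over all 10198 placed probe sets. The 185 probe sets listed under such symbols without the placing had a median of 3.85, and all 45101 had 3.51. Where a gene had several probe sets averaging above 6, their values over the 48 arrays correlated at 0.68 (Ndufa5 and Cox6a1) to 0.96 (a pair of Ndufs8), as a description of values that share arrays. Probe sets of Ndufs8 lay in different stretches and correlated at 0.82 or more. Removing the group means left correlations from 0.04 (Ndufb6) to 0.88 (Ndufs8). Genes with a single probe set have no such value. Below the cut of 6 lay a probe set of Ndufa12 (averaging 5.37), of Uqcr10 (4.08) and of Ndufs8 (2.26). The Ndufa12 one was higher at ip 400 mg/kg than in ip saline (0.55) where its brighter one was lower (-0.66). The Uqcr10 one was lower (-1.43), as were its brighter ones, and that of Ndufs8 differed by -0.09.

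Each gene was represented by its probe set of highest mean. A gene was tested where its value exceeded the table median (3.47) in at least 6 arrays, which 45 of the 47 genes did. Cox4i2, the lung isoform of a complex IV subunit, had group medians between 2.18 and 2.27. Ndufa4l2, a relative of Ndufa4 known from hypoxia, had group medians between 2.28 and 3.26 and exceeded the table median in too few arrays, so both stayed untested. All 8 groups were fitted together with limma, and "rose" or "fell" means a Benjamini-Hochberg adjusted p under 0.05 over all 5748 genes tested. Mice carry separate numbers in the labels and no batch is named. Levels of different probe sets are not amounts of RNA that can be set against each other, so the results compare the same gene between groups.

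Array medians lay between 3.34 and 3.55 in the iv arrays and between 3.47 and 3.68 in the ip arrays. The 90th percentiles of the arrays did not overlap, at 8.28 to 8.75 iv and 9.07 to 9.23 ip. Most of the genes followed here are read above these levels, 35 of them averaging more than 10 in ip saline. Among the iv arrays 4 stood apart with medians of 3.47 to 3.55, 1 in each iv group (saline mouse 1, 50 mg/kg mouse 9, 200 mg/kg mouse 27 and 400 mg/kg mouse 44), against 3.34 to 3.43 in the other 20. Kidney identity was borne out by the summed level of 15 proximal tubule markers, which ran from 15.77 to 16.57 in the saline arrays, and of 8 thick limb and distal tubule markers, from 15.20 to 15.96. The muscle genes Ckm, Tnni2 and Mb exceeded the table median in 0 of 48 arrays, Myh4 in 1 and Myh6 in 10. Cox6a2 and Cox7a1, on the muscle list and among the genes followed here, exceeded it in 38 and 48. Of the adipose list Fabp4 exceeded it in 48 arrays, Adipoq in 27, Cidea in 10, Ucp1 in 5 and Lep in 0. A share of other tissue in the kidney pieces was not tested.

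At the highest dose most of these genes were lower. After 400 mg/kg ip, 40 of the 45 tested genes fell against ip saline, 2 rose and 3 did not pass, while 25.1% of all genes tested fell and 36.3% rose, so 61.3% were called in either direction. After 400 mg/kg iv, 31 fell against iv saline, 1 rose and 13 did not pass, while 19% of all genes fell and 30.7% rose (49.7% called in either direction). Their median log2 fold change was -0.66 ip and -0.37 iv, beside 0.11 and 0.09 over all genes tested. Falls common to both routes numbered 31, and 9 genes fell by ip alone (Cox7a2l also rose by ip alone), which is not a test of the difference between the routes. In bulk kidney RNA fewer cells of a type and less RNA per cell cannot be told apart.

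At the lower doses few or none of them passed. At 50 mg/kg 0 of 45 passed by either route, with 0 (iv) and 1 (ip) at an unadjusted p under 0.05, where limma called 0.539% (iv) and 0.087% (ip) of all genes. At 200 mg/kg ip 0 passed, with 0 at an unadjusted p under 0.05 and 0.087% of all genes called. At 200 mg/kg iv the complex II gene Sdha alone fell, with 7.36% of all genes called, 1.29% lower and 6.07% higher. A further 3 genes, Cox7a1, Ndufs3 and Ndufs1, had an unadjusted p under 0.05 there and did not pass (log2 fold changes -0.50, -0.31 and -0.29). No alternative processing gave a call at 50 mg/kg by either route or at 200 mg/kg ip. Each dose was compared with the saline group of its route, so comparisons within a route share their controls.

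The mean over the 45 tested genes, a summary of each mouse, was 11.74 ± 0.05 in ip saline (SD, n = 6), 11.75 ± 0.09 at ip 50, 11.76 ± 0.07 at ip 200 and 11.07 ± 0.15 at ip 400 mg/kg. The 6 ip 400 mice, from 10.88 to 11.30, lay below every other ip mouse, whose lowest value was 11.63. For iv the means were 11.54 ± 0.13 in saline, 11.55 ± 0.14 at 50, 11.45 ± 0.14 at 200 and 11.11 ± 0.15 at 400 mg/kg. The iv 400 mice, from 10.90 to 11.33, overlapped iv saline mouse 1, at 11.29, and none of the other iv saline mice, which began at 11.53. They also overlapped iv 50 mouse 9 (11.29) and iv 200 mice 25 (11.32) and 27 (11.27).

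**Figure D1:**
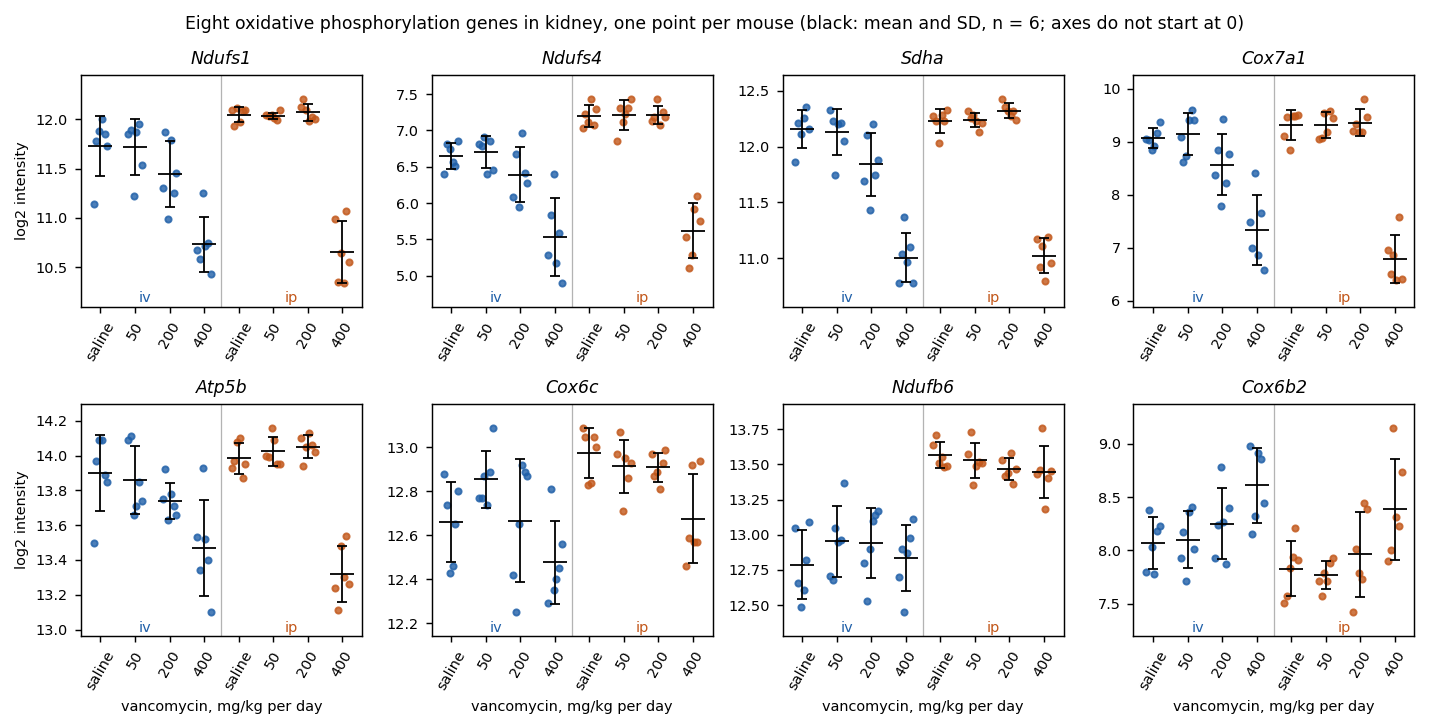
Log2 intensity (vertical axis) of 8 genes in every mouse by daily dose of vancomycin in mg/kg (horizontal axis), iv in blue and ip in orange; black bars are the mean and SD of 6 mice. Ndufs1, Ndufs4, Sdha, Cox7a1 and Atp5b are low at 400 mg/kg, Ndufb6 stays near its saline level of the same route, and Cox6b2 is higher at 400 mg/kg, where its groups overlap.

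Promoter sequences were looked up because so many of these genes were lower together. RefSeq promoter windows (GRCm38.p6) were matched to 40 of the 47 genes, with 43 windows, and were read over the 250 bases before the annotated start on both strands. The NRF1 motif, named for a factor known to act on respiratory chain genes, was searched as GCGC, any base, then TGCGC, and occurred in 9 of the 43 windows (20.9%), of 8 genes, and in 3.74% of all 32851 windows of the table. The lines show a match in capitals, each 5′ to 3′ on the strand of its gene (the motif can lie on either strand), for Sdha and the assembly factor Ndufaf4, which had log2 fold changes of -1.20 and -1.02 at ip 400 mg/kg, for the complex I gene Ndufs5 (-0.70) and for the complex IV gene Cox6a1 (-0.34), so that large and small falls stand side by side. They lie at chr13:74350251-74350330 (minus strand), chr4:24897935-24898014 (plus), chr4:123718240-123718319 (minus) and chr5:115349031-115349110 (minus).
Sdha: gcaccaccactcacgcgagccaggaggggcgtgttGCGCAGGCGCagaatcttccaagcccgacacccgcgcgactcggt
Ndufaf4: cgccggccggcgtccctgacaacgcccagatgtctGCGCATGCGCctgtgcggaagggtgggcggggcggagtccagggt
Ndufs5: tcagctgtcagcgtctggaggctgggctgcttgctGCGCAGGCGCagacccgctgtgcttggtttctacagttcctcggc
Cox6a1: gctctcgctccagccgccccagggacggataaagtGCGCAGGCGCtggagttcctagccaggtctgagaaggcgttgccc

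The other genes with this match were Atp5h, Atp5k, Ndufa5 and Ndufa8, whose ip 400 log2 fold changes were -0.47, -0.73, -0.42 and -0.69. CCGGAAG, the core bound by GABP, occurred in 16.3% of the windows of these genes and 6.91% of all. AAGGTCA, the core bound by oestrogen-related receptors, occurred in 4.65% and 4.08%, those of Ndufs5 and Ndufb2. CCAAT occurred in 41.9% and 33.8%, and AAGATGG followed by CGG, a form of the YY1 motif, in 0 and 0.301%. A match of letters is a description of the sequence and not evidence of binding.

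Complex I core subunits include those that carry the iron-sulfur clusters leading electrons to ubiquinone. All 4 core subunits that were tested fell by both routes, with a median of -1.05 ip and -0.73 iv. Ndufs1, the largest of them, lay between 11.93 and 12.11 with a median of 12.09 in ip saline and between 10.34 and 11.07 with a median of 10.59 at ip 400 mg/kg. The groups stood clear of each other. This was a 2.62-fold fall (log2 fold change -1.39, SE 0.14, limma adjusted p = 7.5e-12). For iv the range was 11.14 to 12.00 (median 11.81) in saline and 10.43 to 11.25 (median 10.69) at 400 mg/kg, and the groups met only through saline mouse 1. The iv fall was 2.00-fold (SE 0.14 on the log2 scale, limma adjusted p = 5.8e-08).

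Ndufs7, whose cluster is the last before ubiquinone, ranged from 13.11 to 13.27 (median 13.16) in ip saline and from 11.79 to 12.40 (median 12.04) at ip 400 mg/kg. In iv mice it ranged from 12.99 to 13.39 (median 13.10) in saline and from 12.08 to 12.66 (median 12.44) at 400 mg/kg. Neither pair of groups overlapped, and the falls were 2.10-fold ip and 1.65-fold iv (limma adjusted p = 2.8e-11 and 5.6e-07). Ndufs3, a core subunit of the matrix arm, ranged from 11.76 to 12.22 (median 12.02) in ip saline and from 10.62 to 11.20 (median 11.01) at ip 400 mg/kg. Its iv groups, 11.58 to 12.08 (median 11.88) and 10.54 to 11.61 (median 11.12), just overlapped. It fell 2.06-fold ip and 1.66-fold iv (limma adjusted p = 1.3e-09 and 4.2e-06). Ndufs8, which binds iron-sulfur clusters, fell by less (-0.63 ip, -0.48 iv), and its other probe sets above 10 fell by 0.61 to 0.86 ip.

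Accessory subunits surround the core of complex I. Of the 15 tested, 13 fell ip and 9 fell iv, and 0 rose, with medians of -0.66 and -0.32. Ndufs4, a matrix arm subunit whose loss causes Leigh syndrome, ranged from 7.04 to 7.44 (median 7.17) in ip saline and from 5.11 to 6.10 (median 5.64) at ip 400 mg/kg. It ranged from 6.40 to 6.86 (median 6.66) in iv saline and from 4.90 to 6.40 (median 5.44) at iv 400 mg/kg, where the highest treated mouse lay just under the lowest saline mouse. The falls were 2.99-fold ip and 2.17-fold iv (limma adjusted p = 9.6e-11 and 5.7e-07).

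Ndufa10, a subunit related to nucleoside kinases, was read near background. It ranged from 4.61 to 5.02 (median 4.63) in ip saline and from 3.07 to 4.17 (median 3.59) at ip 400 mg/kg, and from 4.27 to 5.09 (median 4.82) in iv saline and from 3.72 to 4.39 (median 4.12) at iv 400 mg/kg. The ip groups were separate and the iv groups overlapped. It fell 2.14-fold ip and 1.58-fold iv (limma adjusted p = 2.4e-08 and 2.9e-04), and the ip size is approximate because its lowest treated values lay under the table median.

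The accessory genes with intermediate falls were Ndufv3 (-0.79 ip, -0.58 iv), Ndufa9, which lies near the ubiquinone site (-0.78, -0.53), Ndufs5 (-0.70, -0.43), Ndufa8 (-0.69, -0.32), Ndufa12 (-0.66, -0.37) and the membrane arm gene Ndufb5 (-0.59, -0.52). All of these passed by both routes. The call on Ndufa12 rests on its bright probe set: the second, averaging 5.37, moved by 0.55 ip and -0.63 iv, and the mean of both did not pass ip (-0.06, limma adjusted p = 0.74). Ndufa1 fell modestly by both routes (-0.42, -0.25). The membrane arm genes Ndufb2 (-0.67) and Ndufb3 (-0.55) and the matrix arm genes Ndufa5 (-0.42) and Ndufa7 (-0.30) fell ip, while their iv values of -0.16, -0.23, -0.27 and -0.06 did not pass. Without iv saline mouse 1, Ndufb3 (-0.30, limma adjusted p = 0.027) and Ndufa5 (-0.44, limma adjusted p = 0.014) passed iv as well. Without the 4 iv arrays that stood apart Ndufb2 passed too (-0.32, limma adjusted p = 0.016).

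A pair of complex I genes did not pass by either route. Ndufb6, a membrane arm subunit, ranged from 13.48 to 13.71 (median 13.53) in ip saline and from 13.18 to 13.76 (median 13.44) at ip 400 mg/kg, and from 12.49 to 13.09 (median 12.74) in iv saline and from 12.45 to 13.11 (median 12.89) at iv 400 mg/kg. The differences were -0.12 (95% interval -0.34 to 0.11) ip and 0.05 (-0.18 to 0.28) iv, and the groups overlapped. Its second probe set differed by -0.40 ip, and the mean of both fell ip (-0.26, limma adjusted p = 0.0025). Ndufa2, a thioredoxin-like subunit, ranged from 12.51 to 12.81 (median 12.60) in ip saline and from 12.41 to 12.63 (median 12.59) at ip 400 mg/kg, and from 12.23 to 12.63 (median 12.41) and 12.16 to 12.41 (median 12.36) in the iv groups. Its differences were -0.06 (-0.22 to 0.11) ip and -0.09 (-0.26 to 0.07) iv, again with overlapping groups.

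Complex II, succinate dehydrogenase, belongs to both the respiratory chain and the tricarboxylic acid cycle. Sdha, its flavoprotein, ranged from 12.03 to 12.33 (median 12.25) in ip saline, 12.13 to 12.32 (median 12.25) at 50, 12.24 to 12.43 (median 12.32) at 200 and 10.80 to 11.19 (median 11.03) at 400 mg/kg. In iv mice it ranged from 11.86 to 12.35 (median 12.18) in saline, 11.75 to 12.33 (median 12.20) at 50, 11.43 to 12.20 (median 11.81) at 200 and 10.78 to 11.37 (median 11.01) at 400 mg/kg. At 400 mg/kg every mouse of either route lay below every saline mouse of that route. The falls were 2.30-fold ip and 2.22-fold iv (limma adjusted p = 8.3e-14 and 1e-12).

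At iv 200 mg/kg Sdha fell 1.25-fold (-0.32, SE 0.10, limma adjusted p = 0.047), with overlapping groups. That call held under quantile normalization, the mean filter, array weights and without iv saline mouse 1, and was lost under the other 7 alternatives. The effect of 200 mg/kg on Sdha differed between routes by 0.41 (ip minus iv, unadjusted p = 0.007), which did not pass (limma adjusted p = 0.17). Sdhb, the iron-sulfur subunit, ranged from 13.23 to 13.50 (median 13.36) in ip saline and from 12.03 to 12.76 (median 12.31) at ip 400 mg/kg. Its iv values ran from 12.96 to 13.29 (median 13.20) in saline and from 12.10 to 12.90 (median 12.48) at 400 mg/kg, and neither pair of groups overlapped. It fell 1.99-fold ip and 1.62-fold iv (limma adjusted p = 4.1e-12 and 6.6e-08).

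Complex III was represented by its small subunit Uqcr10, which fell by 0.78 ip and by 0.37 iv on the log2 scale (limma adjusted p = 1.5e-08 and 0.0034). Its dimmer probe sets, averaging 6.14 and 4.08, differed by -0.85 and -1.43 ip and by -0.35 and -0.67 iv. Cyc1, cytochrome c1 of the same complex, does not carry these symbols and fell too (-0.78 ip, -0.42 iv). Cycs, the cytochrome c that carries electrons onward, fell ip (-0.40) and had 0.03 iv, which did not pass.

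The 6 broadly expressed subunits of complex IV had the smallest median of any complex, -0.36 ip and -0.19 iv, though differences between complexes were not tested. All 6 fell ip, from Ndufa4, a late-joining subunit once counted with complex I (-0.68), and Cox5b (-0.46) to Cox7a2 (-0.38), Cox6a1 (-0.34), Cox6b1 (-0.31) and Cox6c (-0.30). By iv Ndufa4 (-0.37), Cox5b (-0.27) and Cox7a2 (-0.19) fell, and all of these calls were lost when only the groups compared were fitted (limma adjusted p = 0.11, 0.051 and 0.077). Cox6a1 (-0.12), Cox6b1 (-0.11) and Cox6c (-0.18) did not pass iv. Without iv saline mouse 1, Cox6a1 reached -0.21 and passed (limma adjusted p = 0.012). Cox6b1 passed iv under quantile normalization (-0.19, limma adjusted p = 0.015) and without the 4 iv arrays that stood apart (-0.19, limma adjusted p = 0.037), and Cox6c with centred arrays (-0.24, limma adjusted p = 0.044). The second probe sets of Cox6a1 and Cox7a2 differed by more than the first, by -0.33 and -0.41 iv and by -0.55 and -0.51 ip, so the small median depends on the probe sets taken. Under quantile normalization Cox6c did not pass ip (-0.23, limma adjusted p = 0.073).

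**Figure D2:**
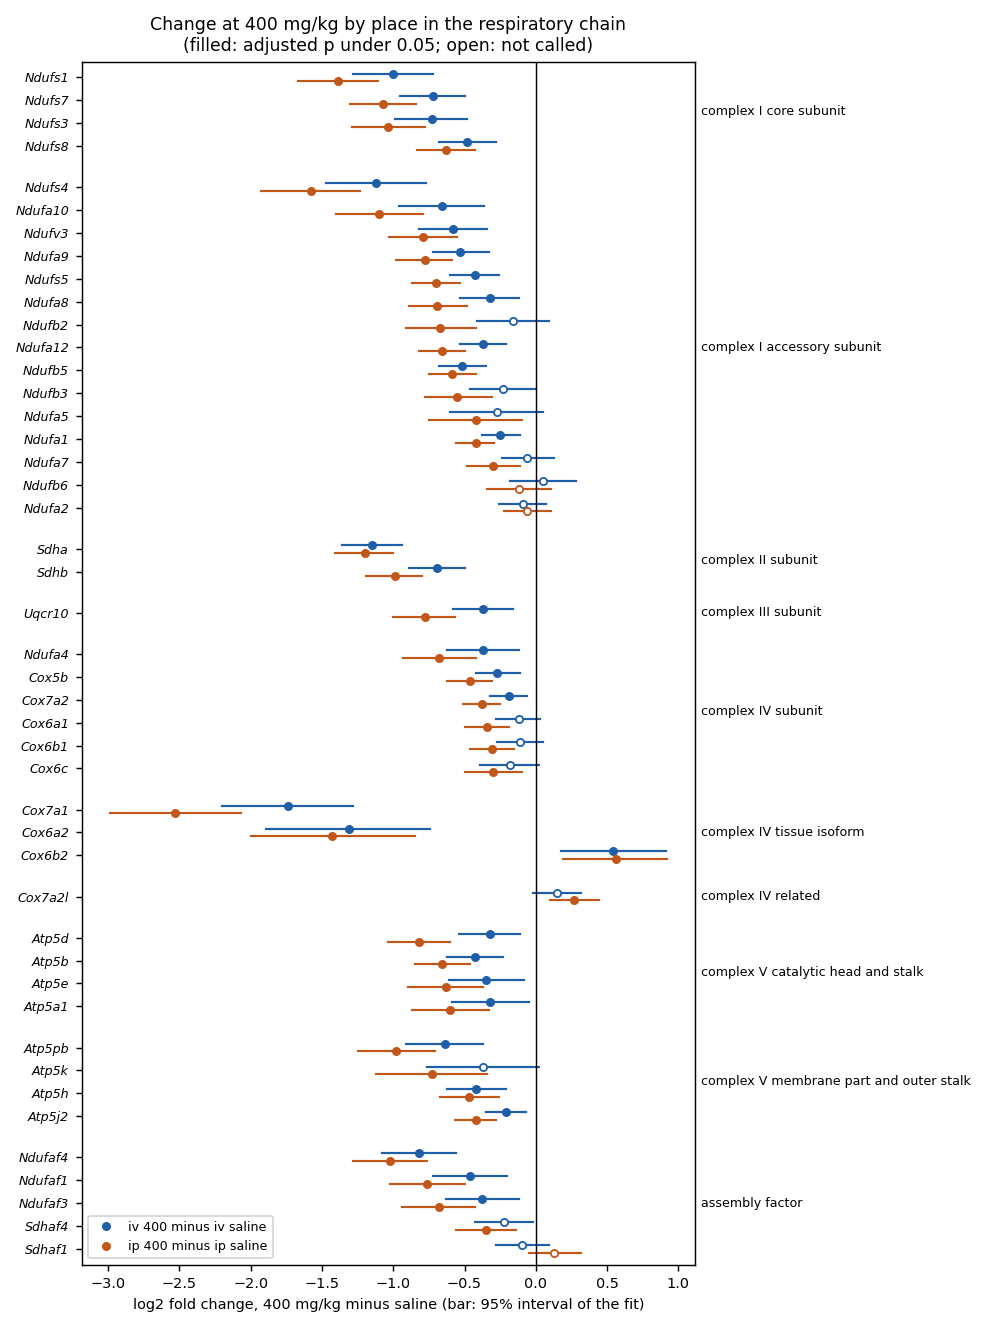
Log2 fold change at 400 mg/kg against saline of the same route (horizontal axis, bars are 95% intervals of the limma fit) for the 45 tested genes, grouped by complex (vertical axis), iv in blue and ip in orange; filled points passed the test. Ip points lie left of the iv points in 41 of 45 genes, and Cox7a1 at -2.53 and Cox6b2 at 0.56 mark the ends.

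The largest fall was in a tissue isoform of complex IV. Cox7a1, the heart and skeletal muscle isoform of subunit VIIa, had ip ranges of 8.84 to 9.51 (median 9.48) in saline, 9.06 to 9.58 (median 9.32) at 50, 9.18 to 9.82 (median 9.27) at 200 and 6.40 to 7.58 (median 6.69) at 400 mg/kg. By iv it ran from 8.85 to 9.38 (median 9.05) in saline, 8.63 to 9.61 (median 9.25) at 50, 7.79 to 9.43 (median 8.57) at 200 and 6.58 to 8.41 (median 7.24) at 400 mg/kg. The 400 mg/kg groups lay wholly below saline, while 5 of the 6 iv 200 mice lay below the iv saline range and 1 above it. The iv 200 mice at 7.79, 8.22 and 8.37 lay within the iv 400 range. The falls at 400 mg/kg were 5.79-fold ip and 3.34-fold iv (log2 fold changes -2.53 and -1.74, SE 0.23 each, limma adjusted p = 4.9e-13 and 2e-08), the largest of these genes by either route.

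Cox6a2, the heart and skeletal muscle isoform of subunit VIa, ranged from 4.39 to 5.78 (median 4.78) in ip saline and from 3.39 to 3.69 (median 3.42) at ip 400 mg/kg. It ranged from 4.23 to 5.36 (median 4.41) in iv saline and from 2.74 to 3.98 (median 3.26) at iv 400 mg/kg, and neither pair of groups overlapped. It fell 2.69-fold ip and 2.49-fold iv (limma adjusted p = 2.9e-05 and 1.4e-04), with treated levels around the table median, so the sizes are approximate. Of the other muscle genes, Ckm, Tnni2 and Mb were under the table median on every array, Myh4 was above it on 1 array and Myh6 on 10. Myh6 was the only one of them tested. All 3 tested genes of the muscle list, Myh6 included, fell at ip 400 mg/kg. At iv 400 mg/kg 2 of them fell, Cox6a2 and Cox7a1. Myh6 was read close to the table median, and a share of muscle tissue in these falls was not tested. The broadly expressed counterparts of Cox7a1 and Cox6a2, Cox7a2 and Cox6a1, fell by 0.38 and 0.34 ip.

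Cox6b2, known as the testis isoform of subunit VIb, rose by both routes. It ranged from 7.51 to 8.21 (median 7.87) in ip saline and from 7.90 to 9.15 (median 8.27) at ip 400 mg/kg, and from 7.78 to 8.38 (median 8.10) in iv saline and from 8.15 to 8.98 (median 8.65) at iv 400 mg/kg. The groups overlapped by both routes, and the log2 fold changes were 0.56 (SE 0.18, limma adjusted p = 0.0074) ip and 0.54 (SE 0.18, limma adjusted p = 0.011) iv. Cox7a2l, which joins complexes III and IV into supercomplexes, ranged from 10.58 to 10.93 (median 10.69) in ip saline and from 10.82 to 11.15 (median 10.99) at ip 400 mg/kg and rose by 0.27 (SE 0.08, limma adjusted p = 0.0047), with overlap. With arrays centred on their medians it did not pass ip (0.18, limma adjusted p = 0.10). In iv mice Cox7a2l ran from 10.51 to 10.76 (median 10.71) in saline and from 10.54 to 11.01 (median 10.83) at 400 mg/kg, a difference of 0.15 that did not pass.

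Complex V makes ATP in a catalytic head that a central stalk turns. The 4 head and stalk genes fell by both routes, with medians of -0.65 ip and -0.34 iv. Atp5b and Atp5a1, the beta and alpha subunits of the head, fell by 0.66 and 0.60 ip and by 0.43 and 0.32 iv, and Atp5e of the stalk fell by 0.63 and 0.35. The iv calls on Atp5a1, Atp5e and Atp5d were lost when only the groups compared were fitted (limma adjusted p = 0.18, 0.12 and 0.091).

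Atp5d, the delta subunit of the stalk, ranged from 12.16 to 12.47 (median 12.28) in ip saline and from 11.23 to 11.83 (median 11.44) at ip 400 mg/kg, with no overlap. Its iv values ran from 11.81 to 12.33 (median 12.25) in saline and from 11.40 to 12.26 (median 11.90) at 400 mg/kg, with wide overlap. It fell 1.76-fold ip and 1.25-fold iv (limma adjusted p = 8e-09 and 0.011). The membrane part and outer stalk also fell ip in all 4 genes, Atp5pb, the b subunit of the outer stalk (-0.98), Atp5k (-0.73), Atp5h (-0.47) and Atp5j2 (-0.42). By iv Atp5pb (-0.64), Atp5h (-0.42) and Atp5j2 (-0.21) fell, the last not when only the groups compared were fitted (limma adjusted p = 0.093). Atp5k, which helps the synthase to form dimers, had -0.37 iv (limma adjusted p = 0.11), and without iv saline mouse 1 it passed (-0.60, limma adjusted p = 0.003).

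Of the 5 assembly factors 4 fell ip and 3 fell iv. Ndufaf4, which acts in an early step of complex I assembly, ranged from 9.21 to 9.43 (median 9.30) in ip saline and from 7.93 to 8.70 (median 8.25) at ip 400 mg/kg. It ranged from 8.22 to 8.68 (median 8.42) in iv saline and from 7.18 to 8.06 (median 7.6) at iv 400 mg/kg, and the groups were separate by both routes. It fell 2.02-fold ip and 1.76-fold iv (limma adjusted p = 3.6e-09 and 7.5e-07). Ndufaf1 (-0.76 ip, -0.46 iv) and Ndufaf3 (-0.68, -0.38) fell by both routes, and Sdhaf4, a chaperone of Sdha, fell ip (-0.35) with -0.22 iv, which did not pass, though it did without iv saline mouse 1 (-0.27, limma adjusted p = 0.031). Sdhaf1, which serves the iron-sulfur clusters of Sdhb, ranged from 7.48 to 8.00 (median 7.79) in ip saline and from 7.70 to 8.12 (median 7.93) at ip 400 mg/kg, and from 7.55 to 7.73 (median 7.67) and 7.35 to 7.75 (median 7.62) in the iv groups. Its differences of 0.13 (95% interval -0.05 to 0.32) and -0.10 (-0.28 to 0.09) did not pass, although Sdhb itself fell.

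Counted mouse by mouse, 36 of the 45 genes had all 6 ip 400 mice below all 6 ip saline mice, where 17.2% of all genes tested had. The 9 that overlapped were Cox6b1, Cox6b2, Cox6c, Cox7a2l, Ndufa2, Ndufa5, Ndufb6, Sdhaf1 and Sdhaf4. For iv 12 of the 45 were separate in this way (6.87% of all genes): Cox6a2, Cox7a1, Cox7a2, Ndufaf3, Ndufaf4, Ndufb5, Ndufs4, Ndufs5, Ndufs7, Ndufv3, Sdha and Sdhb.

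**Figure D3:**
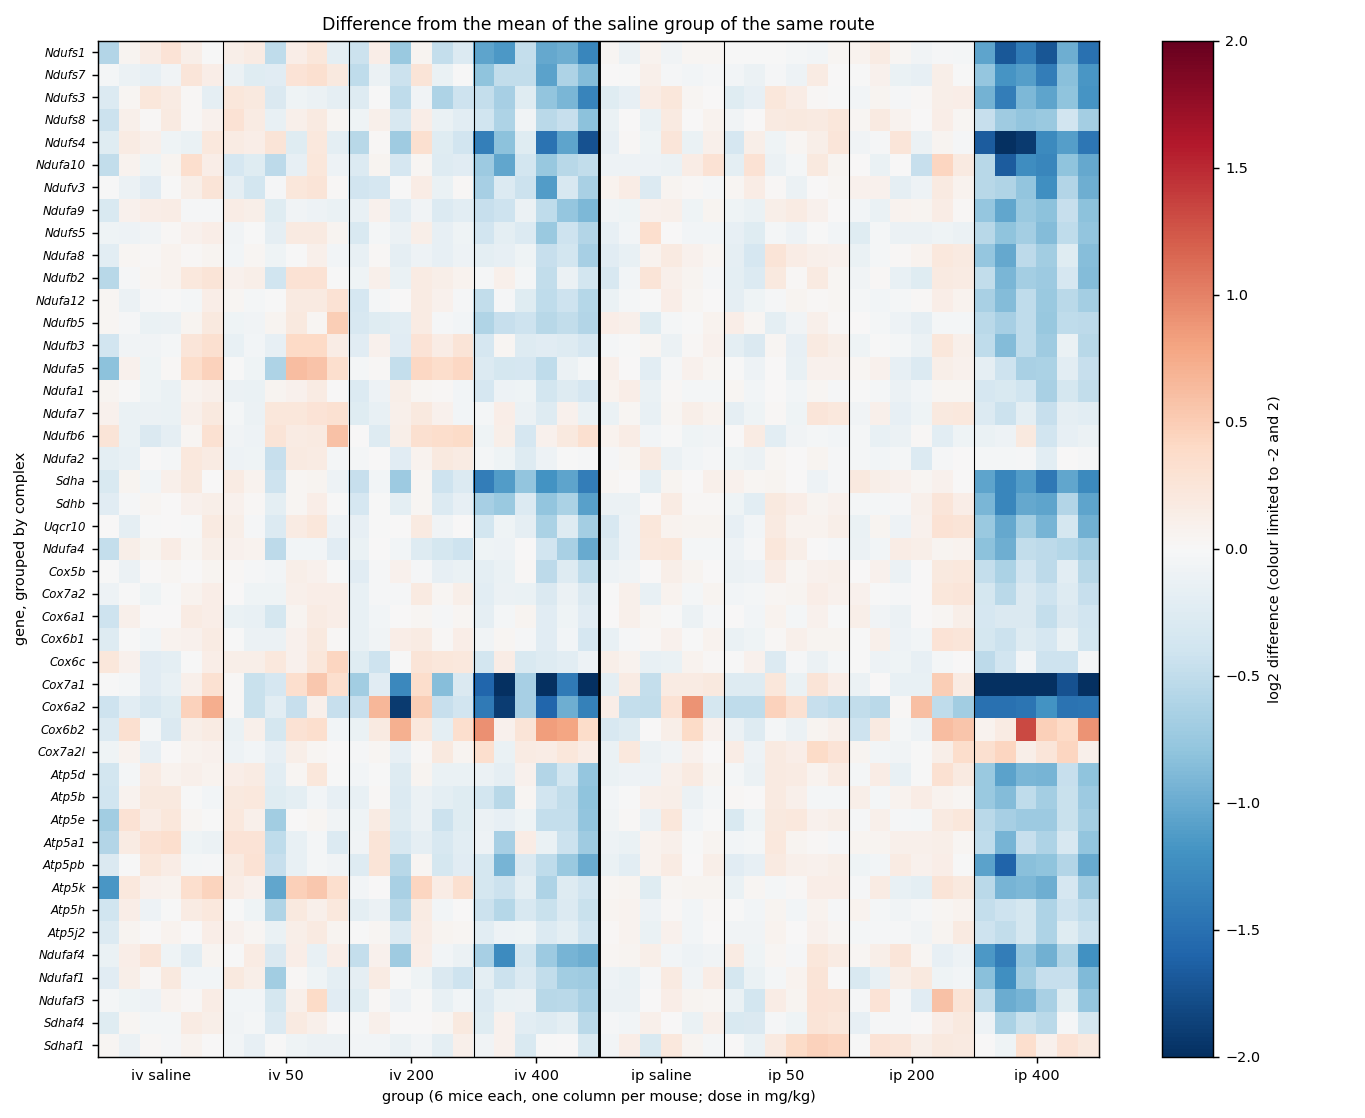
Difference in log2 intensity from the mean of the saline group of the same route (colour, limited to -2 and 2) for the 45 tested genes (rows, by complex) in each of the 48 mice (columns, 6 per group). Blue fills the ip 400 mg/kg columns except in cells of Cox6b2, Cox7a2l, Ndufb6, Ndufa2 and Sdhaf1, and most of the iv 400 mg/kg columns with more exceptions (such as Ndufa7, Cox6c and Atp5a1), and the first iv saline column is paler blue in many rows.

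The step from 200 to 400 mg/kg was compared directly. By ip 40 of the 45 fell and 2 rose (60.6% of all genes called, 25.3% lower and 35.2% higher), with a median of -0.70. The rises, of Cox7a2l and Cox6b2, were lost with centred arrays (limma adjusted p = 0.40 and 0.16). They were also lost with only the groups compared (limma adjusted p = 0.058 and 0.11). The falls of Ndufa12 and Cox6c were lost under some alternatives as well. By iv 25 fell and 0 rose (31.2% called, 13.4% lower and 17.8% higher), with a median of -0.29. Over this step the log2 fold changes ip and iv were -1.30 and -0.83 for Sdha, -2.58 and -1.24 for Cox7a1, -1.6 and -0.86 for Ndufs4, and -1.42 and -0.71 for Ndufs1. Over all 45 genes the ip 200 log2 fold changes against saline ran from -0.27 (Cox6a2) to 0.17 (Sdhaf1).

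The 400 mg/kg effect was then compared between routes as an interaction, ip minus iv. Atp5d alone passed, with an effect lower by 0.49 by ip (SE 0.15, limma adjusted p = 0.0497), where 4.31% of all genes were called, 1.37% lower and 2.94% higher. This call sat at the threshold and was lost under 6 of the alternatives. Of the 45 genes 41 had a lower value by ip, with a median of -0.24 beside 0.01 over all genes, and 12 had an unadjusted p under 0.05. Beside Atp5d, the most negative were Cox7a1 (-0.79, limma adjusted p = 0.16), Ndufb2 (-0.51, 0.085), Ndufs4 (-0.46, 0.29) and Ndufa10 (-0.44, 0.24). Without iv saline mouse 1 the median was -0.19, and without the 4 iv arrays that stood apart -0.17. For 200 mg/kg 0 genes passed the interaction, 1 had an unadjusted p under 0.05, and 0.974% of all genes were called.

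Saline kidneys of the 2 routes differed in most genes, 57.7% of all those tested, with 55.1% higher and 2.57% lower by ip and a median of 0.41. Among the 45 oxidative phosphorylation genes 13 were higher in ip saline and 0 lower, with a median of 0.15, under that of all genes. Ndufaf4 (0.88), Ndufb6 (0.78), Ndufa9 (0.65), Ndufaf1 (0.56) and Ndufs4 (0.55) led. These calls turn with the scaling of arrays: under quantile normalization 3 were higher and 9 lower, with a median of -0.12 beside -0.04 over all genes, and with arrays centred on their medians 4 were higher and 1 lower. Ndufaf4, Ndufb6 and Ndufa9 were higher under both scalings (0.72 and 0.36, 0.62 and 0.62, 0.49 and 0.33). Route and array scale cannot be told apart in these saline groups.

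Other genes of mitochondrial energy metabolism came from lists, of which only the members with a placed name that passed the filter were tested. Their counts stand beside 25.1% of all genes falling and 36.3% rising ip, and 19% falling and 30.7% rising iv. The tricarboxylic acid cycle feeds electrons to the chain, and its 10 tested genes, pyruvate dehydrogenase included, all fell by both routes, with medians of -0.85 ip and -0.59 iv. Idh3a of isocitrate dehydrogenase fell by 1.18 and 0.90, and Cs, citrate synthase, by 0.56 and 0.32. Among 14 further assembly factors 9 fell and 1 rose ip, and 7 fell and 1 rose iv. Ecsit fell by 1.38 ip and 0.84 iv and Cox15, of haem a synthesis, by 1.02 and 0.63, while Ttc19 of complex III rose (0.84 and 0.67).

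Mitochondrial ribosomal proteins, which make the subunits encoded in mitochondrial DNA, fell in 26 of 35 genes ip (median -0.45), with 0 rising. By iv 7 of the 35 fell and 1 rose (median -0.09), a share of falls near that of all genes. Mrpl1 fell by 1.03 and 0.81 and Mrpl50 by 1.04 ip, with -0.25 iv, which did not pass. Of 14 import and membrane genes 9 fell ip and 3 iv, the latter again near the share of all genes, and of 7 electron transfer and carrier genes 5 and 4. Etfa, which brings electrons from fatty acid oxidation, fell by 1.05 and 0.65, and Slc25a5, an ADP and ATP carrier, by 0.55 and 0.25.

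Regulators did not move one way: of 6 tested, 3 fell and 2 rose ip, and 2 fell and 2 rose iv. Their share of rises lay near that of all genes (36.3% ip, 30.7% iv). Ppargc1a, the coactivator known for driving mitochondrial biogenesis, fell by 0.66 ip and 0.84 iv, and Tfb2m by 0.67 and 0.64. Nrf1 (0.75 and 0.52) and the related coactivator Pprc1 (1.71 and 1.29) rose. Glycolysis genes were mixed too, with 4 of 14 rising and 3 falling ip and 5 rising and 2 falling iv, and medians of 0.10 and -0.02. Both shares lay near those of all genes, so these counts are no trait of glycolysis. Hk2, the inducible hexokinase, rose by 4.10 and 3.27, Eno2 by 1.70 and 0.75, and Pdk4, which blocks pyruvate dehydrogenase, by 1.66 and 1.63, while Pfkm fell by 1.38 and 1.24.

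**Figure D4:**
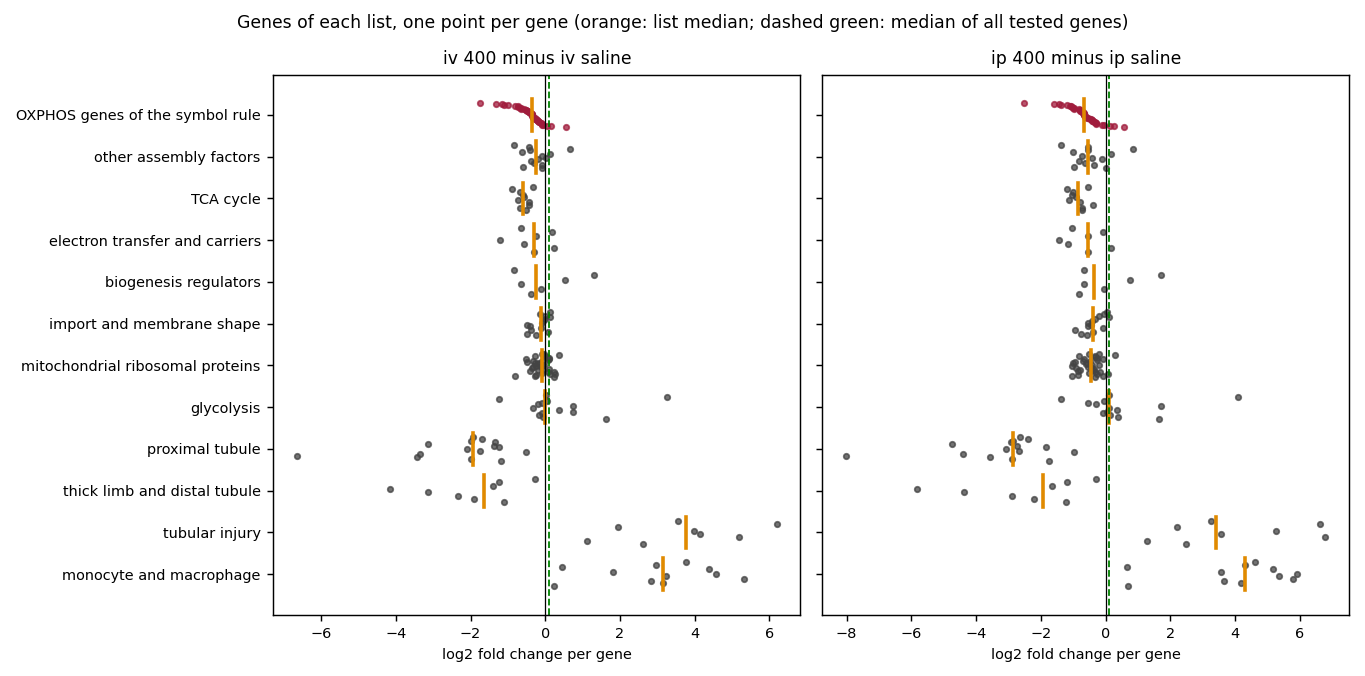
Log2 fold change at 400 mg/kg against saline (horizontal axis) for each tested gene (points) of each list (vertical axis), iv left and ip right; orange marks are list medians and the dashed green line is the median of all genes tested. Oxidative phosphorylation genes centre on -0.37 iv and -0.66 ip, between glycolysis near 0 and proximal tubule markers at -1.95 iv and -2.85 ip.

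Markers of cell types moved in the same kidneys. Beside them, 25.1% of all genes tested fell and 36.3% rose ip, and 19% fell and 30.7% rose iv. All 15 proximal tubule markers fell by both routes (medians -2.85 ip, -1.95 iv), and their summed level (log2 of the summed intensities) ran from 13.25 to 14.71 at ip 400 and from 13.66 to 15.49 at iv 400 mg/kg, below all saline mice of either route. All 8 thick limb and distal tubule markers fell (-1.94, -1.65), and of 7 collecting duct markers 4 fell ip and 6 iv (-0.74, -1.24). The 9 podocyte and endothelium markers had the smallest median changes (-0.18, -0.08), with 1 rising and 2 falling by either route, a share of falls near that of all genes. Single markers of this list differed both ways. Nphs1 averaged 6.10 in ip saline and 5.06 at ip 400 mg/kg, and Ehd3 8.26 and 7.20. Synpo averaged 8.00 and 8.43 in the same groups, and Wt1 5.31 and 5.78, though only 1 marker of the list passed upward. All 8 tubular injury markers rose by both routes (3.41, 3.77). Of 11 monocyte and macrophage markers 11 rose ip and 10 iv (4.29, 3.16), and their summed level went from 9.37 to 10.29 in ip saline to 13.57 to 14.82 at ip 400 mg/kg. In iv mice it went from 9.38 to 9.65 in saline to 12.40 to 13.84 at 400 mg/kg. Of the lymphocyte and neutrophil list 7 of 13 genes had a placed name and 0 passed the filter. Cd2, Cd79a, Ms4a1 and Ngp exceeded the table median on 0 arrays, Cd3e and Jchain on 1 each and Cd79b on 4. Cd79b averaged 2.56 in ip saline and 3.48 at ip 400 mg/kg, and 2.91 and 3.24 in the same iv groups. The summed level of the list ran from 5.15 to 5.23 in ip saline and from 5.18 to 6.17 at ip 400 mg/kg. Ngp was the only neutrophil gene with a placed name, so absence of these cells is not shown. The iv 200 mice, in which Sdha fell, had summed macrophage markers from 9.73 to 12.04 and proximal tubule markers from 14.96 to 16.23. The part of cell composition in the changes of the oxidative phosphorylation genes was not tested.

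The pattern of each gene over the 48 arrays was set against the mean of the standardised values of the 45. Sdhb and Atp5j2 followed it most closely (Pearson r 0.96 each), and Cox6b2 (-0.46), Cox7a2l (-0.12), Ndufb6 (0.29), Sdhaf1 (0.34) and Ndufa2 (0.45) least. The arrays share their groups, so these values describe mainly the difference between 400 mg/kg and the rest. Outside these genes the most alike were Eaf2 (0.970), Tmem116 (0.963), Ppa2, a mitochondrial pyrophosphatase (0.950), Sod2, the mitochondrial superoxide dismutase (0.949), and Gamt of creatine synthesis (0.949). They were picked for likeness to a mean that is low at 400 mg/kg, so lower values there follow from the choice. Their log2 fold changes ran from -1.18 (Sod2) to -2.46 (Gamt) ip and from -0.71 to -1.79 iv, and all 5 fell by both routes.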

How the data were processed

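The authors deposited intensity values on a linear scale for 45101 probe sets and 48 arrays, which the submitters' processing notes credit to GCRMA, without a version or a statement of which arrays were normalized together. Columns were matched to mice through the labels, and 0 other columns of sample values were present. Values from 1.78 to 63594 were taken as log2 without an offset. Names came from the platform annotation, placed by position in 3 stretches known from an earlier analysis of these values (10198 probe sets, 7859 genes). The probe set of highest mean stood for a gene, and 24930 probe sets above 3.47 in at least 6 arrays were kept. All 8 groups were fitted with limma 3.58.1 (lmFit, contrasts.fit, eBayes with trend) in R 4.3.3, two-sided, with Benjamini-Hochberg adjustment over 5748 genes in each of 11 comparisons. The fit was run on simulated data with few changed genes and no effects shared by an array. That setting is simpler than these data, so it does not vouch for the calls made here. Any of the 47 placed genes could be described. Full group values were given for the 10 largest falls at ip 400 mg/kg, for genes called in the interaction, at a lower dose or upward, and for those not called at ip 400 mg/kg. Genes and lists were chosen with earlier results of these data known. The alternatives numbered 11: 9 changed scaling, filter, offset, weights, groups fitted, probe sets per gene or the genes adjusted over, and 2 added after seeing the data left out arrays. Of arrays, their number limits the precision.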

Additional observations from a re-analysis of the deposited data

Results flagged for a closer look

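A mouse was singled out where its gap to the nearest of the other 5 mice was a large part of its group's range (Dixon's test at 95%). Chance gives about 1 in 20 groups, and 21 of 360 gene and group pairs were singled out. Of these, 11 came from iv saline mouse 1, each the lowest of its group (log2 intensity): Atp5d 11.81, Atp5e 11.56, Atp5j2 12.91, Atp5k 11.52, Cox6a1 14.00, Ndufa4 12.31, Ndufa8 11.63, Ndufa9 11.70, Ndufb2 10.32, Ndufs1 11.14 and Ndufs8 13.52. This array also had the highest median of its group, 3.47 against 3.34 to 3.37 in the other 5, and the part of that in its low values was not tested. The iv 50 mg/kg mouse 9, another array of high median, was lowest in Atp5e (11.56) and Atp5k (11.63).

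The other pairs were spread over several mice. At iv 400 mg/kg Ndufa2 was low in mouse 45 (12.16) and Ndufb3 high in mouse 44 (11.87). The ip saline mouse 63 was low in Atp5k (12.54) and Sdha (12.03) and high in Ndufs5 (12.71). Ndufa2 was low in ip 200 mg/kg mouse 88 (12.36) and ip 400 mg/kg mouse 106 (12.41), and the latter was high in Cox6a2 (3.69). The effect of 400 mg/kg on Atp5d differed between routes by -0.49 (ip minus iv, limma adjusted p = 0.0497).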

How the results depend on the processing

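Under the 11 alternatives falls numbered 24 to 38 of the 45 genes at iv 400 mg/kg and 38 to 41 at ip 400 mg/kg. Of the genes that fell, 24 of 31 (iv) and 38 of 40 (ip) did so under every alternative that tested them. The iv calls lost under at least 1 were Atp5a1, Atp5d, Atp5e, Atp5j2, Cox5b, Cox7a2 and Ndufa4, and the ip calls Cox6c and Ndufa12. Calls gained under at least 1 were the falls of Ndufb2, Ndufb3, Ndufa5, Cox6a1, Cox6b1, Cox6c, Sdhaf4 and Atp5k iv and of Ndufb6 ip. The 1 call at iv 200 mg/kg became 0 with centred arrays, no filter, an offset of 16, only the groups compared, the mean of probe sets, adjustment over all probe sets and without the 4 iv arrays of highest median, and 12 (11 lower, 1 higher) with array weights. The 25 calls of iv 400 against 200 mg/kg became 15 with only the groups compared. The 13 of the saline groups became 5 with centred arrays. The 1 call of the 400 mg/kg interaction became 0 with centred arrays, no filter, a mean of at least 6, only the groups compared, without the 4 iv arrays and without iv saline mouse 1, and 4 with array weights. The 0 of the 200 mg/kg interaction became 9 (8 higher, 1 lower) with array weights. The cause of these shifts was not tested.

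Signs turned for Ndufb6 at iv 400 mg/kg (-0.01 centred, -0.02 mean of probe sets) and Ndufa2 at ip 400 mg/kg (0.06 quantile), neither of which passed, and between the saline groups for Ndufa2 (-0.08), Sdhaf4 (-0.12), Ndufs1 (-0.06) and Atp5j2 (-0.03) under quantile normalization and Ndufa12 (-0.16) with the mean of probe sets. Several genes are read with probe sets that can bind related sequences (3 of type x, 6 of type s and 15 of type a). No paired analysis was possible because no mouse number is shared between groups.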
